A study of Homo sapiens with 40 samples.

Results

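The genes described here are 35 members of the hypoxia-inducible factor (HIF) pathway, listed by symbol and found in the deposited count table by Ensembl gene identifier, out of 60664 genes in that table. They comprise 4 genes of oxygen sensing and HIF subunits (EGLN1, EGLN3, EPAS1 and ARNT), 11 genes of glucose uptake and glycolysis, 2 carbonic anhydrases, 4 secreted factors, 4 genes of collagen, matrix and protein folding, 2 mitophagy genes, 3 genes of transcription and chromatin, and 5 genes of growth, stress and lipid handling. RNA sequencing of total RNA was done on 786-0 cells, an established human clear cell renal cell carcinoma line, that carried SETD2 knocked out (KO) or intact (WT). SETD2 encodes the methyltransferase that trimethylates histone H3 at lysine 36. KO and WT cells were given 100 nM DAC, 10 nM BMN, or both agents at those doses (the combination), and were sampled at days 5, 16 and 26, beside untreated KO and WT controls at day 0. DAC is decitabine, a DNA methyltransferase inhibitor, and BMN is BMN673 (talazoparib), a PARP inhibitor. Each of the 20 groups held 2 libraries, 40 in all. Untreated cells come from day 0 alone, and a comparison with them therefore holds both the treatment and the days in culture, which cannot be told apart. The labels name a single KO and a single WT form of the line and do not say whether the 2 libraries of a group came from separate cultures, so p-values measure the spread between libraries, which may be technical.

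HIF is a dimer of an oxygen-regulated alpha subunit, HIF1A or EPAS1, with the constant partner ARNT. In oxygenated cells the prolyl hydroxylases EGLN1 and EGLN3 mark the alpha subunit, and the ubiquitin ligase that contains VHL then degrades it. 786-0 cells lack functional VHL and are known for constant EPAS1 protein and no functional HIF1A protein. HIF target genes can therefore be on in them without low oxygen, though not every target need be. The dimer binds a short core motif, ACGTG or the close variant GCGTG, in promoters and enhancers of genes for glucose use, blood vessel growth, acid handling and matrix formation.

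Promoter windows of 250 bases before to 50 bases after a transcription start were taken from RefSeq (build GRCh38.p14), and 30 of the 35 members had at least 1 window. VEGFA, BNIP3L, NDRG1, HILPDA and CCND1 had no window and were not searched. Both motifs were searched on both strands. CACGTG is a match on each strand, and neighbouring matches can share a letter. ACGTG occurred in at least 1 window of 18 of 30 members, which is 60% of them, against 24.9% of 27305 genes with windows. GCGTG occurred in 60% of the members and in 40.6% of all genes. By window, 48.9% of the members' 47 windows and 21.4% of all 35116 windows held ACGTG, with some windows of a gene overlapping. Of the 11 glycolysis members 7 had ACGTG. A match is a description of the letters and does not show binding. The windows below belong to members whose levels carry the main patterns: LOX, P4HA1, ADM and ANGPTL4 were high at day 16 of DAC-containing treatment, LDHA and PGK1 are glycolysis members given for comparison, and CA9 was nearly silent. Capitals mark ACGTG or GCGTG read on either strand, so CACGT and CACGC are the same motifs on the other strand.

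LOX, chr5:122078210-122078509, minus strand, GRCh38.p14: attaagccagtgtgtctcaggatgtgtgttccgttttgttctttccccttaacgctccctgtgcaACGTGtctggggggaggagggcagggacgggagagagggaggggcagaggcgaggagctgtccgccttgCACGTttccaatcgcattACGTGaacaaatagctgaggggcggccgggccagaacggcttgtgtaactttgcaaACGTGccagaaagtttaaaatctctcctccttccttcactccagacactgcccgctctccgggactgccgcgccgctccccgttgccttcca
P4HA1, chr10:73096817-73097116, minus strand, GRCh38.p14: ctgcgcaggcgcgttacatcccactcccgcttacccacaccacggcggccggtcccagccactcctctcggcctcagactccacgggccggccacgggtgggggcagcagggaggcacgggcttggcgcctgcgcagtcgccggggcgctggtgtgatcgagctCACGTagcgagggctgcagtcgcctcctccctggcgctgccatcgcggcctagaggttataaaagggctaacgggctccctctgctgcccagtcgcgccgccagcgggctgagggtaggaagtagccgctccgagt
ADM, chr11:10304823-10305122, plus strand, GRCh38.p14: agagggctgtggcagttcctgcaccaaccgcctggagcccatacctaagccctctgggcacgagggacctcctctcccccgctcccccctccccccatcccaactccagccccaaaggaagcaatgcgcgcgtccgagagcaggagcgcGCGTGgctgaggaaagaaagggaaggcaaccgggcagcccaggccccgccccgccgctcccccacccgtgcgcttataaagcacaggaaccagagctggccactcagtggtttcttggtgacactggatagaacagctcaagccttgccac
ANGPTL4, chr19:8363905-8364204, plus strand, GRCh38.p14: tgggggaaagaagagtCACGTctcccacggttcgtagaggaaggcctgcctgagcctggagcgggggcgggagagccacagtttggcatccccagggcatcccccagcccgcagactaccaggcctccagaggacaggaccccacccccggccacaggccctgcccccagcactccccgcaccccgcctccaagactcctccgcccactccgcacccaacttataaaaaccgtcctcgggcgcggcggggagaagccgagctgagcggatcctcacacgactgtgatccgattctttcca
LDHA, chr11:18394313-18394612, plus strand, GRCh38.p14: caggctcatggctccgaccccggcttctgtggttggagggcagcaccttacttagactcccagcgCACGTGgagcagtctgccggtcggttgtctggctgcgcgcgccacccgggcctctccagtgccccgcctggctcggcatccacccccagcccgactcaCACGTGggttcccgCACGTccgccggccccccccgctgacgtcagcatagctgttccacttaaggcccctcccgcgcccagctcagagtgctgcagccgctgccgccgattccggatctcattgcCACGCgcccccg
PGK1, chrX:78103998-78104297, plus strand, GRCh38.p14: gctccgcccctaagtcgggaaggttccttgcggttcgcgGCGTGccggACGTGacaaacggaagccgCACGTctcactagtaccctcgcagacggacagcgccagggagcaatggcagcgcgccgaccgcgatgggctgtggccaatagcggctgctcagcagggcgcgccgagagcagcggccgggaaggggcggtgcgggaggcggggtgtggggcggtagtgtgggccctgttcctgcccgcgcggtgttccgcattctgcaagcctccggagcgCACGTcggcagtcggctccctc
CA9, chr9:35673678-35673977, plus strand, GRCh38.p14: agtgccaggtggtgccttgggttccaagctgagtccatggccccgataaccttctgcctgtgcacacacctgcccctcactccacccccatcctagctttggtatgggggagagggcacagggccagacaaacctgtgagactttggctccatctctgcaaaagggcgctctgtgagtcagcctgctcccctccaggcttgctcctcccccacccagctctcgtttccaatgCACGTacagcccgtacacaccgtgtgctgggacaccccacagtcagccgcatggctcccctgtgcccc

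The LDHA window held ACGTG on 5 strand positions, since each CACGTG counts once on each strand, and the PGK1 window held it at 3 positions. The ADM window held GCGTG alone, and the windows of ANGPTL4, CA9 and P4HA1 held ACGTG once each. The LOX window, that of the first of its 3 listed starts, held ACGTG at 4 positions.

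Assigned counts ran between 17833960 and 22631101 per library. Renal carcinoma markers, PAX8 and VIM among them, were present in all libraries with a summed level of 4259 to 6426 CPM (counts relative to library size, scaled by the trimmed mean of M-values). VIM alone ran between 2978 and 5430 CPM, PAX8 between 209.9 and 481.3 CPM and PAX2 between 7.28 and 92.85 CPM. Leukocyte markers summed to at most 1.16 CPM and HBA1 and HBB were at 0 in every library. The pair of untreated WT libraries stood furthest apart of the 20 pairs, with a median coefficient of variation over the members of 9.19%, against 1.13% to 7.37% in the other 19 groups. SETD2, the targeted gene, had 141 and 113 CPM in KO controls and 149 and 130 CPM in WT controls (log2 difference -0.13 ± 0.07 SE, adjusted p = 0.20, edgeR quasi-likelihood test), and so did not pass with all libraries. It passed as lower in KO without KO control replicate 1 (-0.31, adjusted p = 0.0027, edgeR) or WT control replicate 2 (-0.23, adjusted p = 0.035, edgeR), and was at 0.022 without KO control replicate 2. The labels do not say where the gene was cut, so total SETD2 RNA may not report the edit.

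All 35 members passed the filter on low counts, along with 22527 genes in all, and a change was called at a Benjamini-Hochberg adjusted p under 0.05 over those genes in the edgeR fit. Relative to the length of merged exons, ENO1 (enolase) had the highest level in untreated KO cells, 538 ± 5.06 FPKM (CPM per kilobase; SD, n = 2), and CA9 was at 0. The glycolysis members LDHA (277 ± 19.1 FPKM) and SLC2A1, the glucose transporter (192 ± 5.94 FPKM), and the stress gene DDIT4 (483 ± 19.0 FPKM) were also near the top in KO controls. ANKRD37 at 0.242 ± 0.031 FPKM, ANGPTL4 at 0.408 ± 0.022 FPKM and LOX at 0.774 ± 0.092 FPKM were at the bottom. Merged exons understate the level of genes with long unions such as PDK1 and VEGFA. Another gene on the same strand covered 55.8% of the exon length of EGLN1, 42.8% of ALDOA and 13.2% of HILPDA, so their counts are uncertain, and 10 members, BNIP3 and LDHA among them, have pseudogenes in the table by symbol.

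In untreated cells, most HIF members that differed were higher in KO than in WT. Of the 35, 18 were higher and 4 lower, where 13.4% of all genes tested were higher and 13.9% lower. The members' median log2 difference was 0.33, against -0.01 over all genes. The increase was spread over secreted factors, growth and stress genes and glucose entry, while several later glycolytic enzymes stayed close to zero.

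STC2, a secreted glycoprotein, had 181 and 157 CPM in KO controls and 32.3 and 28.4 CPM in WT controls. That difference of 2.48 ± 0.08 on the log2 scale (adjusted p = 8.7e-23, edgeR) was the largest increase among the members. CA12, a membrane carbonic anhydrase that handles acid, had 423 and 402 CPM in KO and 110.4 and 118 CPM in WT (1.85 ± 0.06). VEGFA, the blood vessel growth factor, had 477 and 470.3 CPM in KO and 199.9 and 229.9 CPM in WT (1.14 ± 0.07). The KO and WT libraries of these genes did not overlap.

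Among growth, stress and lipid genes, HILPDA, a lipid droplet protein, had 55.4 and 51.6 CPM in KO and 18.4 and 19.3 CPM in WT (1.51 ± 0.12). DDIT4, an inhibitor of mTOR signalling, had 995 and 1052 CPM in KO and 376 and 489 CPM in WT (1.24 ± 0.07), and cyclin D1 (CCND1) had 956 and 942 CPM in KO and 476 and 516 CPM in WT (0.94 ± 0.05). NDRG1, a stress-responsive growth suppressor, passed with a smaller difference of 0.19 ± 0.06, at 1162 and 1137 CPM in KO and 950.4 and 1061 CPM in WT, and was lost without WT control replicate 1 or KO control replicate 1. ADM, the vasodilator adrenomedullin, was higher by 0.55 ± 0.09 and P4HA2, a collagen prolyl hydroxylase subunit, by 0.71 ± 0.06. EGLN3, itself an oxygen sensor and a classic HIF target, had 147 and 151 CPM in KO and 85.6 and 91.7 CPM in WT (0.75 ± 0.07), and EPAS1 had 228 and 214 CPM in KO and 169 and 181 CPM in WT (0.34 ± 0.06).

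Of the glycolysis members 5 were higher in untreated KO cells and 2 lower, with a median of 0.06, and of the other 24 members 13 were higher and 2 lower, with a median of 0.33. The 5 were the hexokinases HK2 (85.3 and 77.4 CPM in KO, 43.8 and 41.1 CPM in WT) and HK1 (378 and 332 CPM in KO, 208 and 193 CPM in WT), the transporter SLC2A1 (1243 and 1299 CPM in KO, 755 and 1004 CPM in WT), PFKFB4 and PDK1. PDK1, a pyruvate dehydrogenase kinase, was the least certain, with 33.4 and 31.6 CPM in KO and 29.1 and 22.7 CPM in WT. Its adjusted p was 0.043 (edgeR), and the call was lost in 3 of 4 fits that left out a control library. PFKFB3, which makes the activator of phosphofructokinase, went the other way, at 185 and 188 CPM in KO and 364 and 429 CPM in WT (-1.09 ± 0.07), as did PGK1, phosphoglycerate kinase, at 468 and 457 CPM in KO and 564 and 622 CPM in WT (-0.36 ± 0.05). ALDOA, ENO1, ENO2 and LDHA did not pass, with log2 differences of -0.13 to 0.06.

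CA9, the carbonic anhydrase most used as a marker of HIF1A activity, had no count in either KO control and 1.06 and 0.777 CPM in WT controls. Against a floor of 3 counts per KO library, 0.164 CPM, it was at least 5.61-fold lower in KO. Over all treatments 5 of 20 KO libraries and 20 of 20 WT libraries held a CA9 count, summing to 13 and 377 counts. HIF1A, which is not among the 35 members, had 10.5 and 10.7 CPM in KO controls and 55.3 and 47.4 CPM in WT controls (-2.28 ± 0.10, adjusted p = 8.2e-19, edgeR).

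**Figure D1:**
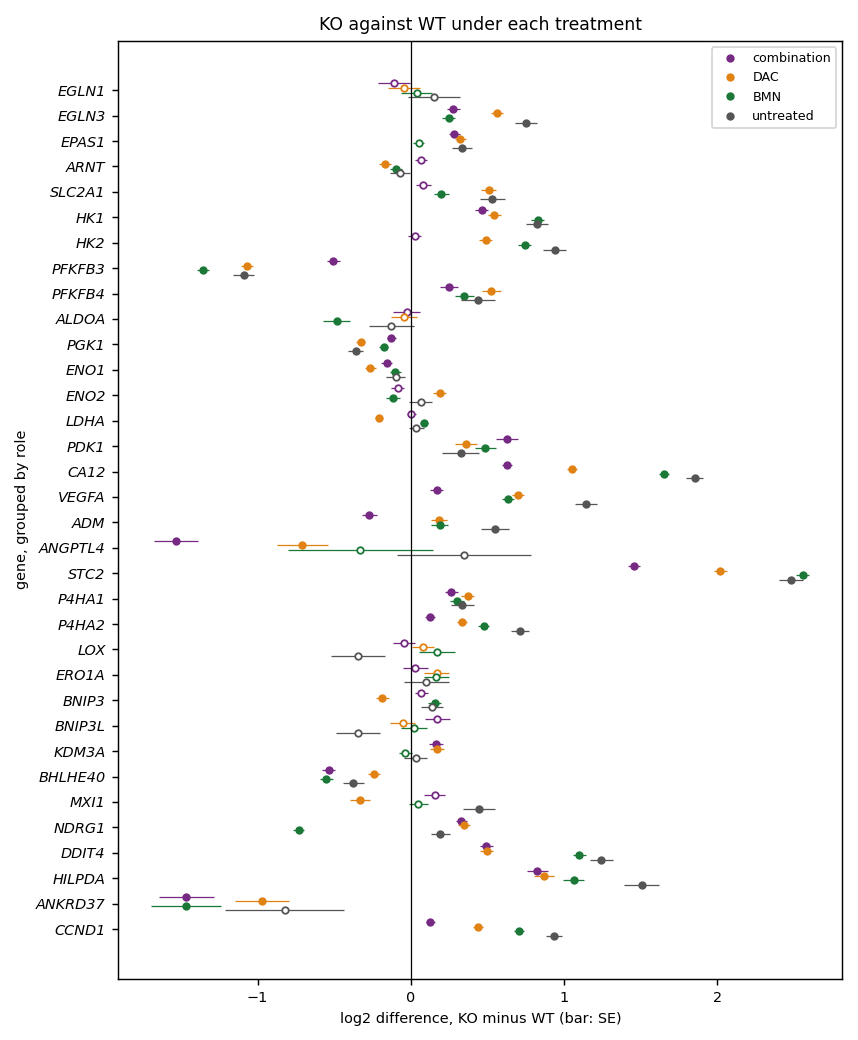
Log2 difference of KO minus WT for 34 members (CA9 is left out, since KO controls had no count) in untreated, BMN, DAC and combination cells, the treated values averaged over 3 days. Bars are standard errors, filled points passed the adjusted p threshold, and STC2, CA12, HILPDA and VEGFA lie to the right while PFKFB3 lies to the left under every treatment.

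Under BMN alone, averaged over days 5, 16 and 26, more HIF members were lower than control than were higher, in both lines. The controls are from day 0, so days in culture are part of this difference. In KO cells 21 of 35 members were lower and 1 was higher, where 17.3% of all genes were lower and 13.2% higher (30.4% in either direction). In WT cells 13 members were lower, where 3.49% of all genes were lower and 2.64% higher (6.13% in either direction). No WT member was higher by the edgeR test or by DESeq2, and 1, STC2, was at an unadjusted p under 0.05. The members' median log2 difference was -0.34 in KO and -0.17 in WT, against -0.01 and 0.00 over all genes. The WT count rests in part on WT control replicate 2. Without it 5 WT members were lower, and ADM, ALDOA, BHLHE40, ENO1, ENO2, EPAS1, PGK1 and SLC2A1 no longer passed.

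NDRG1 had the largest fall of the well-counted members in KO cells, while in WT cells the fall of LOX was larger. In KO cells NDRG1 stood at 1162 and 1137 CPM at day 0, 344 and 343 at day 5 of BMN, 546 and 518 at day 16, and 243 and 245 at day 26, a mean log2 difference from control of -1.70 ± 0.05. In WT cells it stood at 950.4 and 1061 CPM at day 0, 755 and 768 at day 5, 745 and 737 at day 16, and 350.0 and 374 at day 26, a mean of -0.77 ± 0.05. All 6 BMN libraries lay below both controls in each line.

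Among the oxygen sensors, EGLN3 in KO cells stood at 147 and 151 CPM at day 0, 86.7 and 86.6 at day 5 of BMN, 111 and 109 at day 16, and 48.0 and 43.8 at day 26 (-0.97 ± 0.06). In WT cells EGLN3 stood at 85.6 and 91.7 CPM, then 82.1 and 85.5, 81.0 and 82.95, and 42.8 and 33.6 (-0.47 ± 0.06), so the WT fall lay mainly at day 26. EPAS1 fell by 0.52 ± 0.05 on the log2 scale in KO and by 0.24 ± 0.05 in WT. EGLN1 and ARNT fell in KO (-0.46 ± 0.14 and -0.17 ± 0.05) and did not pass in WT (-0.35 ± 0.14 and -0.15 ± 0.05). The KO call was lost for EGLN1 without KO control replicate 2 and for ARNT without KO control replicate 1.

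Of the secreted factors, VEGFA stood at 477 and 470.3 CPM in KO cells at day 0, 316 and 334 at day 5 of BMN, 341 and 339.7 at day 16, and 234 and 235 at day 26 (-0.68 ± 0.06). WT VEGFA stood at 199.9 and 229.9, then 216 and 198, 197 and 199.8, and 165 and 173 CPM (-0.17 ± 0.06, adjusted p = 0.076, edgeR), where day 5 overlapped the controls. ADM fell by 0.65 ± 0.07 in KO and by 0.28 ± 0.07 in WT. ANGPTL4, an inhibitor of lipoprotein lipase, was near 1 CPM before treatment and at 2 and 0 counts in KO at day 26, so its fall of 1.86 ± 0.46 in KO rests on few counts. STC2 was the single member to rise, in KO, by 0.23 ± 0.06, with 178 to 229 CPM under BMN and 181 and 157 CPM in controls, where the ranges overlap, and it was lost without KO control replicate 2.

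In the glycolysis group 6 of 11 members fell in KO and 5 in WT, with medians of -0.19 and -0.10. SLC2A1 fell by 0.65 ± 0.07 in KO and by 0.32 ± 0.07 in WT, ALDOA, the aldolase, by 0.77 ± 0.12 and 0.42 ± 0.12, and ENO2, the neuronal enolase form, by 0.52 ± 0.06 and 0.34 ± 0.06. The WT call of ALDOA was lost in 6 of 8 fits that left out a library. LDHA, lactate dehydrogenase A, had 1469 to 1711 CPM under BMN and 1756 and 1592 CPM in KO controls. LDHA, HK1, PFKFB4 and PDK1 passed in neither line. Of the other 24 members 15 fell in KO and 8 in WT, with medians of -0.44 and -0.17. Among these DDIT4 fell by 0.89 ± 0.06 in KO and by 0.75 ± 0.06 in WT, and CA12 by 0.53 ± 0.04 and 0.33 ± 0.05. LOX, the collagen cross-linking oxidase, fell by 0.91 ± 0.15 in WT and did not pass in KO (-0.39 ± 0.16). CA9, the mitophagy receptors BNIP3 and BNIP3L, the hydroxylase subunit P4HA1, the oxidase ERO1A, the demethylase KDM3A and ANKRD37 passed in neither line.

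**Figure D2:**
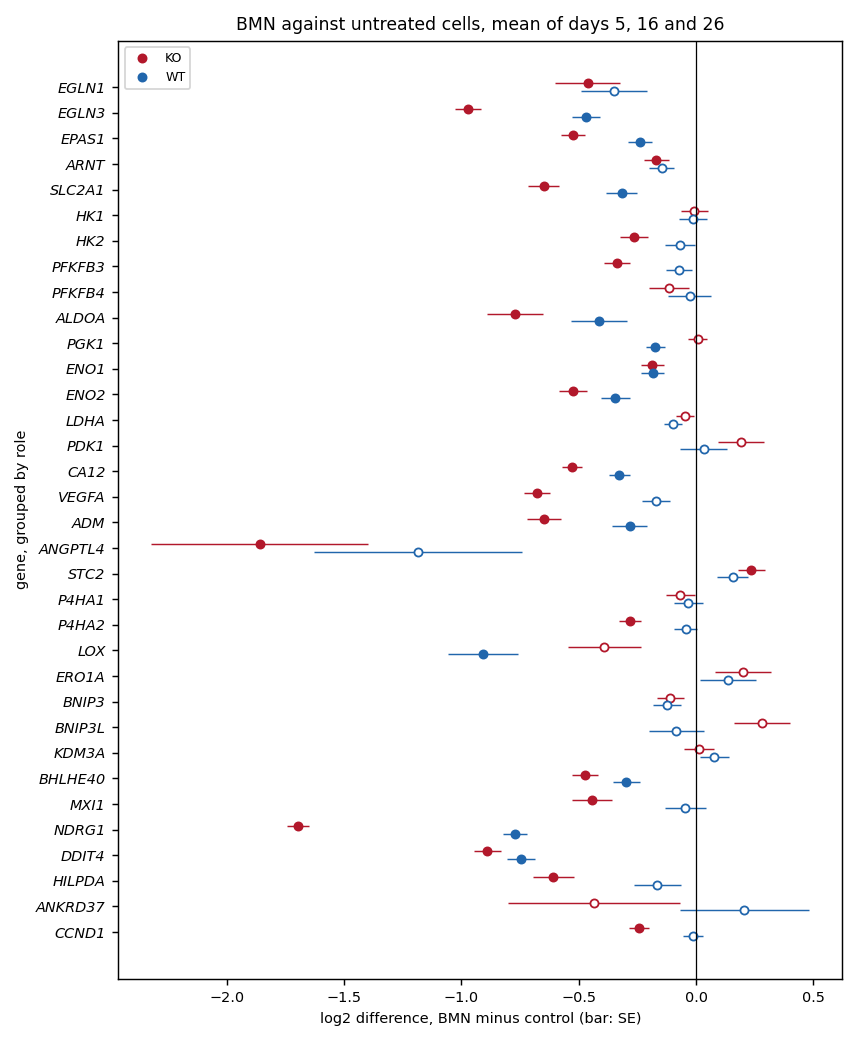
Log2 difference of BMN minus untreated control for 34 members in KO (red) and WT (blue) cells, averaged over 3 days; CA9 is left out. Bars are standard errors and filled points passed the threshold; NDRG1, at -1.70 in KO and -0.77 in WT, shows the widest gap between the lines among well-counted genes.

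The KO fall was set against the WT fall directly, as the difference of the responses. It passed for 5 of 35 members, all with the larger fall in KO, where 1.1% of all genes had a more negative and 0.124% a more positive KO response. They were NDRG1 (-0.92 ± 0.07, adjusted p = 6.0e-10, edgeR), VEGFA (-0.51 ± 0.08), EGLN3 (-0.50 ± 0.08), EPAS1 (-0.28 ± 0.07, adjusted p = 0.048) and CCND1 (-0.23 ± 0.06, adjusted p = 0.047). EPAS1 and CCND1 were close to the threshold, and the count was 3 without any single one of 12 of the 16 libraries compared, among them either KO control and WT control replicate 1. Without WT control replicate 2 it was 15. None of the 11 glycolysis members passed in edgeR, with 6 at an unadjusted p under 0.05 (5 more negative and 1 more positive in KO) and differences between -0.36 ± 0.17 (ALDOA) and 0.18 ± 0.06 (PGK1). A p that misses the threshold does not show that the responses were alike. DESeq2 called 5 members more negative and 1 more positive in KO. KO libraries had the higher level of all 5 genes before treatment. Under BMN, NDRG1 was lower in KO than in WT (-0.73 ± 0.04), and VEGFA, EGLN3 and CCND1 were still higher in KO, by 0.63 ± 0.04, 0.25 ± 0.04 and 0.71 ± 0.03. EPAS1 no longer differed past the threshold (0.05 ± 0.04).

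The counts of lower members were then taken day by day. At day 5 of BMN 19 members were lower than control in KO cells, where 6.65% of all genes were lower, and 2 in WT cells, NDRG1 and DDIT4, where 0.04% of all genes were lower. By day 26, 20 members were lower in each line, where 17.5% of all genes in KO and 11% in WT were lower. Fits that left out 1 library kept 20 lower in KO and gave 14 to 22 in WT. Without WT control replicate 2 the WT calls of ANGPTL4, CA9, CCND1, EGLN1, ENO1 and VEGFA were lost. From day 5 to day 26 of BMN 16 KO members declined and 4 went up, where 9.38% of genes declined and 8.95% went up. In WT 18 members declined, where 10.3% of genes declined and 11.7% went up. No WT member went up by edgeR or DESeq2, and KDM3A did at an unadjusted p under 0.05. The difference of the responses passed for 6 members at day 5 (NDRG1, EGLN3, EPAS1, VEGFA, ADM and CCND1, all lower in KO, where 0.439% of genes were) and for 6 at day 26. These day 26 members were NDRG1, EGLN3, VEGFA, P4HA2 and HILPDA, lower in KO, where 4.16% of genes were, and PGK1, higher, where 1.51% were. At day 5 the count was 13 without WT control replicate 2, 2 without KO or WT control replicate 1 or KO BMN day 5 replicate 1, and 3 without either WT BMN day 5 library. At day 26 it was 12 without WT control replicate 2. The 2 WT calls at day 5 became 1 without WT control replicate 2 or WT BMN day 5 replicate 2 and 0 without WT BMN day 5 replicate 1, and the KO count of changes between day 5 and day 26 became 13 without KO BMN day 5 replicate 1. The 4 KO members that went up, STC2, BNIP3, ARNT and LDHA, numbered 1 or 2 without any single one of the 4 libraries.

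Under DAC alone the members differed from the day 0 controls in both directions. Averaged over 3 days, 16 KO members were higher than control and 15 lower, where 23.4% of genes were higher and 21.1% lower (44.5% in either direction). In WT cells 17 were higher and 10 lower, where 18.9% and 15.7% of genes were, and 6 were lower without WT control replicate 2. The secreted and matrix members were higher on the 3-day average, 4 of 4 in each group and each line. In KO, however, the day 26 libraries of VEGFA, ADM and P4HA2 lay below all control, day 5 and day 16 libraries. That pattern held for 12.9% of all genes tested in KO, and no secreted or matrix member had it in WT. In KO cells LOX stood at 4.70 and 3.97 CPM at day 0, 10.8 and 11.04 at day 5 of DAC, 48.6 and 48.3 at day 16, and 25.1 and 27.6 at day 26 (2.47 ± 0.14). In WT cells LOX stood at 6.20 and 4.82 CPM, then 14.9 and 12.0, 35.9 and 35.9, and 25.3 and 23.6 (2.04 ± 0.13). All 6 DAC libraries lay above the controls in each line. P4HA1 rose by 0.83 ± 0.06 in KO and by 0.80 ± 0.06 in WT, and STC2 by 0.77 ± 0.06 and 1.23 ± 0.07. Of 3 fibroblast markers summed, DAC libraries held 6.15 to 18.4 CPM in KO and 9.70 to 23.5 CPM in WT, against 2.70 to 2.92 CPM in KO controls and 1.09 to 1.46 CPM in WT controls. LUM made up most of that, and PDGFRA stayed at or below 0.16 CPM in every library.

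The glycolysis members leaned lower under DAC, with 2 higher and 7 lower in KO (median -0.24) and 4 higher and 6 lower in WT (median -0.16), whereas the other 24 had 14 higher and 8 lower in KO (median 0.27) and 13 higher and 4 lower in WT (median 0.43). PFKFB3 fell by 0.82 ± 0.05 in KO and by 0.84 ± 0.05 in WT, and ENO1 by 0.45 ± 0.05 and 0.29 ± 0.05. ENO2 rose by 0.45 ± 0.06 and 0.33 ± 0.06 and PFKFB4 by 0.36 ± 0.09 and 0.27 ± 0.09, where the WT call of PFKFB4 was lost without WT control replicate 1, WT DAC day 5 replicate 1 or WT DAC day 26 replicate 2. SLC2A1 fell by 0.24 ± 0.07 in KO and by 0.21 ± 0.07 in WT, but the KO call was lost without KO control replicate 2 and the WT value was 0.00564 without WT control replicate 2. DDIT4 fell by 1.51 ± 0.06 in KO and by 0.76 ± 0.06 in WT, and NDRG1 by 0.59 ± 0.05 and 0.74 ± 0.05. MXI1, a MYC antagonist, fell by 1.15 ± 0.08 in KO and by 0.38 ± 0.09 in WT.

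The DAC response differed between the lines for 13 members, all more negative in KO, where 5.17% of genes were more negative and 3.66% more positive (8.82% in either direction). Neither edgeR nor DESeq2 called a member more positive in KO, and LOX and NDRG1 were at an unadjusted p under 0.05. The largest were CA12, MXI1, DDIT4 and HILPDA. CA12 was 0.41 ± 0.05 above control in KO and 1.21 ± 0.05 above it in WT, a difference of -0.80 ± 0.06. HILPDA was at -0.22 ± 0.09 in KO, a call lost with DESeq2, RLE scaling, a minimum of 50 counts or either KO control left out, and rose by 0.41 ± 0.10 in WT. CCND1 fell by 0.47 ± 0.04 in KO and was at 0.03 ± 0.04 in WT. CA12, HILPDA and CCND1 were higher in KO than in WT controls, and under DAC they still were, by 1.05 ± 0.03, 0.87 ± 0.07 and 0.44 ± 0.03.

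**Figure D3:**
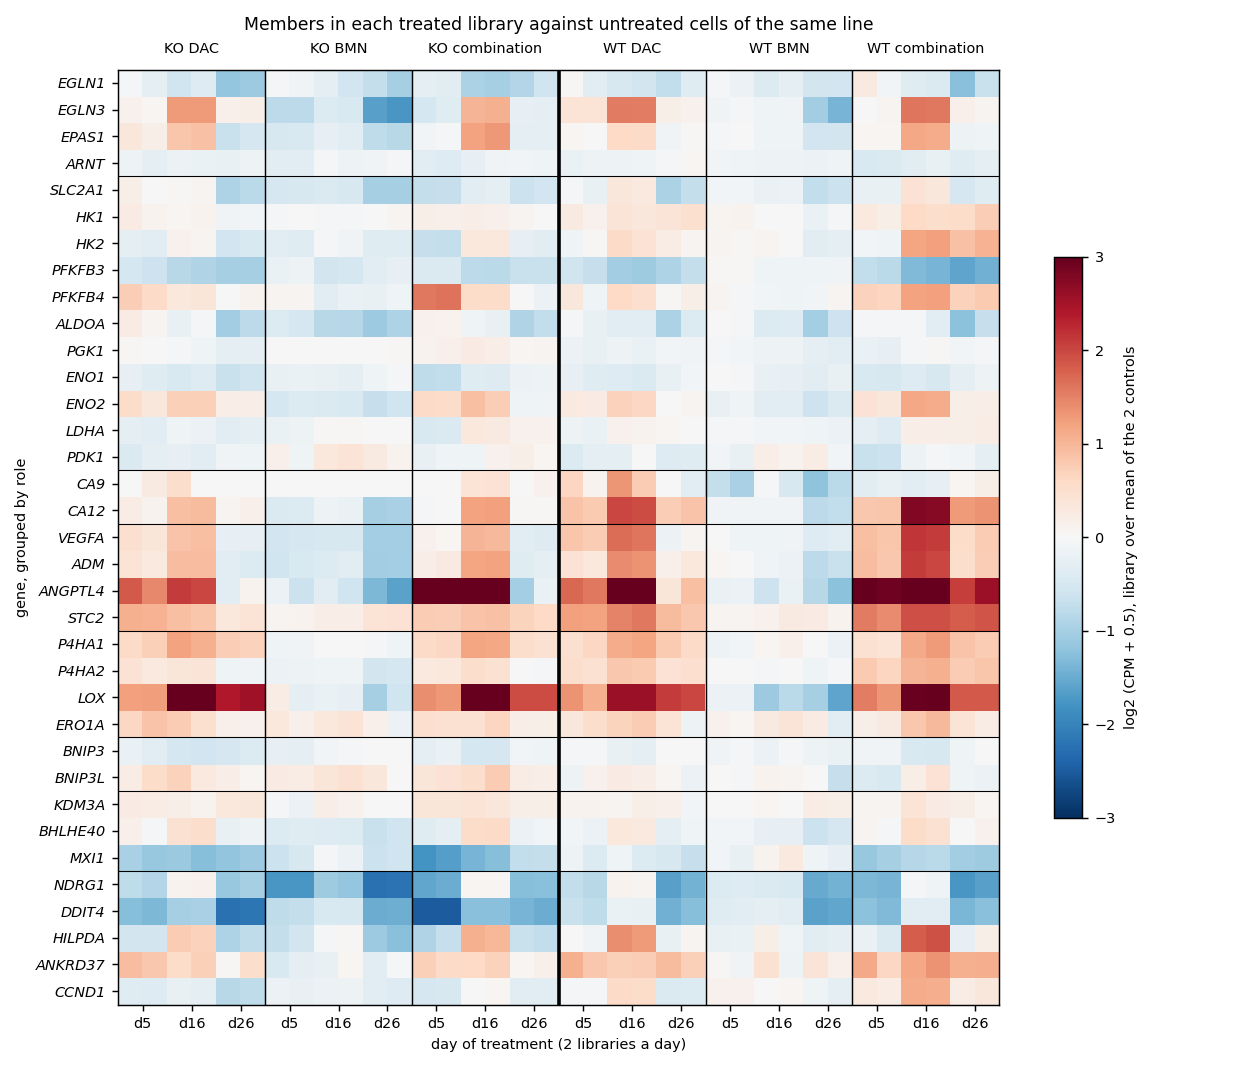
Level of each of the 35 members in each treated library as the log2 ratio of CPM + 0.5 to the mean of the same line's controls, with genes grouped by role and KO libraries left of WT libraries. Red is above control, blue below, and ratios beyond 3 either way take the end colour; the middle columns of the DAC and combination blocks, day 16, are red for EGLN3, CA12, VEGFA, ADM, ANGPTL4 and LOX.

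Day 16 stood out within the DAC and combination courses. This was noticed in the values and then compared as day 16 against the mean of days 5 and 26, with no use of the day 0 controls, so a member can pass without exceeding each of those days. Under DAC 18 members were higher at day 16 in KO and 22 in WT, where 7.18% and 8.23% of all genes were. Under the combination 21 were higher in KO and 25 in WT, where 10.7% and 10.5% of genes were. Under DAC 1 member was lower at day 16 in KO and 3 in WT, where 6.85% and 8.32% of genes were. Under the combination 3 were lower in KO and 2 in WT, where 10.6% and 12.2% of genes were.

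EGLN3 under DAC stood at 164 and 156 CPM at day 5, 362 and 364 at day 16 and 165 and 169 at day 26 in KO, and at 118 and 118, 264 and 256, and 100.8 and 96.4 in WT. The day 16 difference was 1.15 ± 0.06 in KO and 1.27 ± 0.06 in WT. VEGFA under the combination stood at 516 and 493, 954 and 929.8, and 381 and 365 CPM in KO (1.12 ± 0.06), and at 403 and 381, 953 and 922, and 313 and 365 CPM in WT (1.36 ± 0.06). In each of these courses both day 16 libraries lay above all 4 libraries of the other days.

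NDRG1 showed the same form on a falling course. Under the combination it stood at 391 and 412 CPM at day 5, 1189 and 1184 at day 16 and 474 and 482 at day 26 in KO (1.44 ± 0.05), and at 394 and 383, 981 and 912, and 300.1 and 324 CPM in WT (1.44 ± 0.05). Its day 16 level was thus near that of the untreated controls, while days 5 and 26 were below it. EPAS1 under the combination stood at 207 and 215, 509 and 545, and 181 and 183 CPM in KO (1.43 ± 0.05) and at 182 and 184, 393 and 380.0, and 158 and 161 CPM in WT (1.18 ± 0.05). ANGPTL4 reached 79.7 and 68.9 CPM at day 16 of the combination in WT, with 11.3 and 9.19 CPM at day 5 and 4.90 and 7.20 CPM at day 26 (3.23 ± 0.15). In KO it stood at 18.1 and 17.4, 18.9 and 21.5, and 0.246 and 0.816 CPM, so there days 5 and 16 lay close together and day 26 was low.

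In 15 members both day 16 libraries exceeded all libraries of days 5 and 26 in all 4 DAC and combination courses, where 1.72% of genes tested did. They were EGLN3, EPAS1, HK2, ENO2, CA12, VEGFA, ADM, ANGPTL4, P4HA1, LOX, BHLHE40, NDRG1, DDIT4, HILPDA and CCND1. HK2 and ENO2 were the glycolysis members among them. BHLHE40 is a transcriptional repressor of the clock and hypoxia programmes. BNIP3 was lower at day 16 in all 4 courses, by 0.19 ± 0.06 and 0.22 ± 0.06 under DAC and by 0.35 ± 0.06 and 0.39 ± 0.06 under the combination in KO and WT. The call under DAC was lost in KO without either KO day 16 library, KO DAC day 5 replicate 1 or KO DAC day 26 replicate 2, and in WT without either WT day 16 library. DESeq2 and RLE scaling did not make the KO call under DAC. The count of lower WT members under DAC was 1 without either WT day 16 library, where ENO1 was also lost. Under the combination the count of lower members was 1 in KO without KO combination day 16 replicate 2 and 1 in WT without WT combination day 16 replicate 2, where PFKFB3 and, in KO, EGLN1 no longer passed.

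Under BMN alone 13 members were higher at day 16 in KO and 5 in WT, where 2.61% and 0.351% of genes were. The 5 in WT were EGLN3, CA12, MXI1, NDRG1 and DDIT4, and each also passed in KO. MXI1 lost the WT call in 5 of 6 fits that left out a library. NDRG1 was higher at day 16 by 0.88 ± 0.05 in KO and by 0.50 ± 0.05 in WT, although in WT its day 16 libraries, 745 and 737 CPM, lay below both day 5 libraries, 755 and 768 CPM. In WT the day 16 libraries of EGLN3, 81.0 and 82.95 CPM, likewise did not exceed those of day 5, 82.1 and 85.5 CPM. The KO count of changes in either direction was 14, and 9 without either KO day 16 library. The WT count was 8 without WT BMN day 26 replicate 1. Whether day 16 libraries shared a handling date with each other is not given in the labels, and its part in the pattern was not tested.

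**Figure D4:**
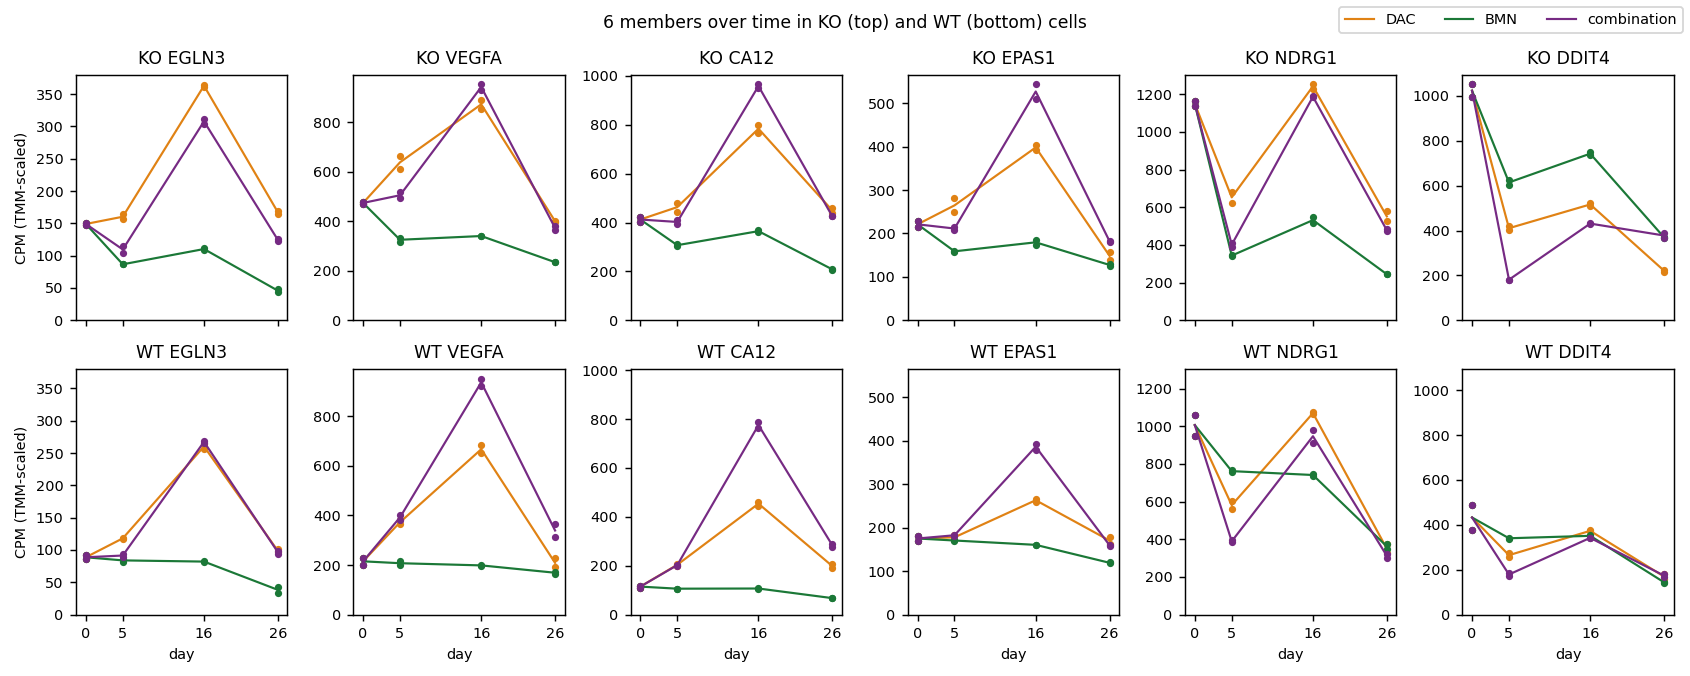
CPM of 6 members in KO cells (top row) and WT cells (bottom row) from day 0 to day 26, with points for libraries and lines through the means of 2 libraries; both rows of a gene share a vertical scale that starts at 0. In the DAC and combination courses the day 16 points lie above the day 5 and day 26 points for each gene, and the BMN course has no such peak for VEGFA in WT cells.

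The combination was set against each agent alone over the same 3 days, so no day 0 control enters. Against BMN 21 KO members were higher and 6 lower, where 26% of genes were higher and 19.2% lower (45.2% in either direction), and 23 WT members were higher and 7 lower, where 27% and 25.3% of genes were (52.3% in either direction). LOX, at 11.4 to 66.9 CPM under the combination and 1.94 to 5.10 CPM under BMN in KO cells, was higher by 2.87 ± 0.09, and by 3.09 ± 0.09 in WT. CA12 was higher by 0.94 ± 0.03 in KO and by 1.958 ± 0.03 in WT. DDIT4 was lower by 0.84 ± 0.04 on the log2 scale in KO and by 0.23 ± 0.04 in WT, and MXI1 by 0.85 ± 0.07 and 0.96 ± 0.07. NDRG1 was higher by 0.78 ± 0.04 in KO and lower by 0.28 ± 0.04 in WT.

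Against DAC the changes were smaller and unlike in the lines. In KO 9 members were higher and 4 lower, where 10.9% of genes were higher and 11.8% lower, and in WT 13 were higher and 8 lower, where 10.2% and 12.8% of genes were. The WT count of lower members was 5 without any of WT DAC day 5 replicate 1, WT DAC day 16 replicate 1, WT combination day 5 replicate 1 or WT combination day 16 replicate 2. VEGFA, CA12, ADM, STC2, HK2 and CCND1 were higher under the combination in WT, by 0.42 ± 0.04, 0.43 ± 0.03, 0.52 ± 0.05, 0.55 ± 0.04, 0.48 ± 0.04 and 0.52 ± 0.03. In KO the first 5 of these did not pass (-0.11 to 0.07) and CCND1 was higher by 0.21 ± 0.03. EGLN3 was lower under the combination by 0.40 ± 0.04 in KO and by 0.12 ± 0.04 in WT, where the call was lost in 7 of 12 fits that left out a library. The KO minus WT difference of the step passed for 19 members, 13 more negative and 6 more positive in KO, where 7.87% and 8.48% of genes were. PFKFB3 was 0.18 ± 0.04 higher under the combination than under DAC in KO and 0.38 ± 0.04 lower in WT, a difference of 0.56 between the lines.

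The lines were also compared under each treatment. Under BMN 17 of 35 were higher and 10 lower in KO, where 21.3% of genes were higher and 26.8% lower (48.1% in either direction). Under DAC 19 were higher and 11 lower, where 23.4% and 25.7% of genes were (49.2% in either direction), and under the combination 15 were higher and 8 lower, where 23.8% and 25.6% were (49.4% in either direction). The KO excess of VEGFA was 0.63 ± 0.04 under BMN, 0.70 ± 0.04 under DAC and 0.17 ± 0.04 under the combination. At day 16 of the combination VEGFA had 954 and 929.8 CPM in KO and 953 and 922 CPM in WT, overlapping ranges. STC2 kept the widest excess, of 2.56 ± 0.04, 2.02 ± 0.04 and 1.46 ± 0.04 under the 3 treatments.

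**Figure D5:**
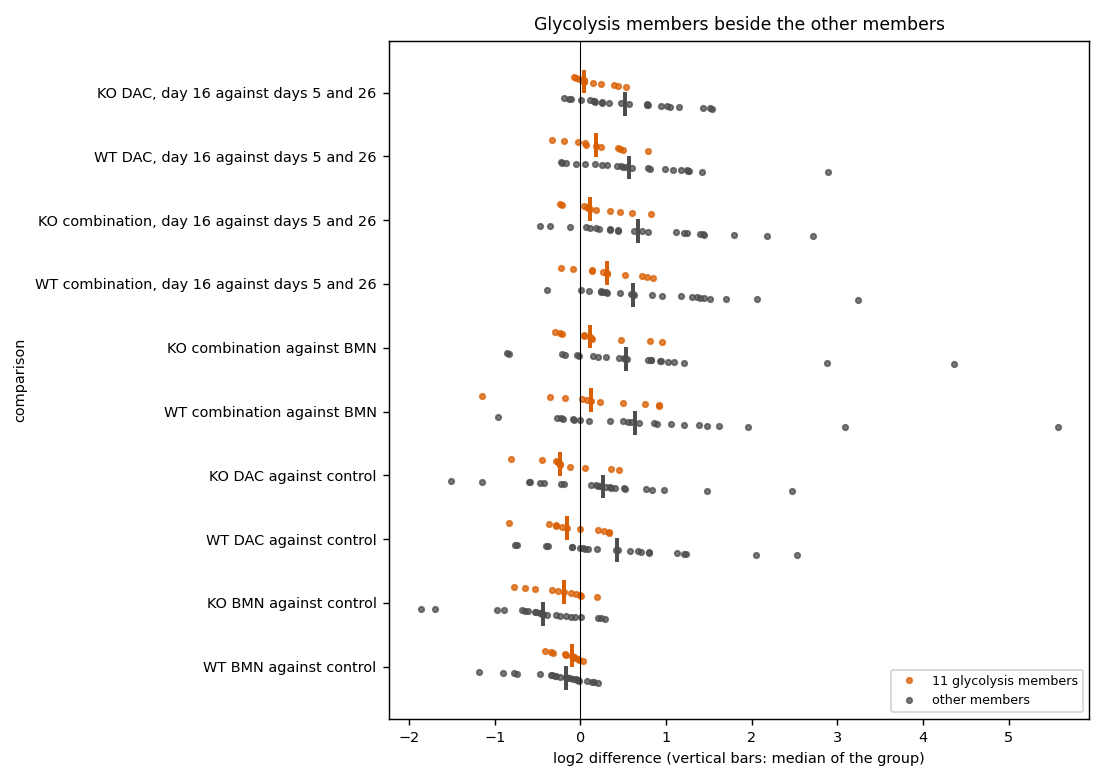
Log2 differences of the 11 glycolysis members (orange) and the other members (grey; CA9 is not drawn as a point) in 10 comparisons, each point 1 gene and each vertical bar the group's median, here with CA9 counted. At day 16 of the DAC and combination courses the median of the other members lies to the right of the glycolysis median, at 0.52 to 0.67 against 0.05 to 0.31.

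The glycolysis members had medians nearer 0 than the other members at day 16 of every course and under BMN against control in both lines. At day 16 of DAC 4 of 11 glycolysis members and 14 of 24 others were higher in KO, with medians of 0.05 and 0.52, and 5 and 17 in WT, with medians of 0.18 and 0.56. At day 16 of the combination 4 and 17 were higher in KO, with medians of 0.11 and 0.67, and 7 and 18 in WT, with medians of 0.31 and 0.62. SLC2A1, HK2, ENO2 and LDHA passed as higher at day 16 than the mean of days 5 and 26 in all 4 of these courses. SLC2A1 under DAC in KO stood at 1436 and 1286 CPM at day 5, 1294 and 1344 at day 16 and 674 and 720.4 at day 26, so days 5 and 16 overlapped. LDHA under the combination in WT stood at 1345 and 1249, 1862 and 1882, and 1851 and 1912 CPM, so days 16 and 26 overlapped. HK2 under the combination stood at 50.2 and 49.1, 102 and 101.4, and 68.8 and 65.0 CPM at days 5, 16 and 26 in KO, and at 39.8 and 38.5, 96.8 and 99.5, and 78.6 and 88.6 CPM in WT. HK1, ALDOA and PGK1 passed in none of the 4 except PGK1 in WT under the combination (0.14 ± 0.04), which was lost in 3 of 6 fits that left out a library. PFKFB3 was lower at day 16 in 3 of the 4, the exception being KO under DAC (-0.08 ± 0.06), and in WT under the combination its day 26 libraries were lower still. From day 5 to day 26 of DAC in KO 9 glycolysis members and 14 of the others declined and 1, LOX, went up, where 17.8% of genes declined and 18.1% went up. In WT 3 and 8 declined and 2 and 2 went up, where 9.14% declined and 12.6% went up. These counts describe the groups, and no test of the groups against each other was made.

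Other genes of the pathway were read from lists outside the 35. Of 12 genes of the HIF machinery 11 were tested, HIF3A being too low. In untreated cells 1 was higher in KO, the ARNT homologue ARNT2 (0.74), and 2 were lower, HIF1A (-2.28) and CUL2 (-0.53), a scaffold of the VHL ligase. Of all genes 13.4% were higher and 13.9% lower, so the machinery counts lie near the share over all genes. VHL was at 70.3 and 67.6 CPM in KO controls and 60.3 and 67.3 CPM in WT controls (0.11 ± 0.07, adjusted p = 0.29, edgeR). HIF1A climbed with time under DAC, at 10.7 and 9.81 CPM at day 5, 20.1 and 19.6 at day 16 and 21.1 and 22.4 at day 26 in KO, so its day 16 call against the mean of days 5 and 26 there (0.41), like that in WT (0.28), is not a peak. Under the combination in KO it stood at 16.4 and 14.5, 24.6 and 21.5, and 14.0 and 15.4 CPM (0.61), highest at day 16. Of 20 other HIF target genes 18 were tested, and at day 16 of DAC 12 were higher and 2 lower in each line. Of all genes 7.18% were higher and 6.85% lower in KO, and 8.23% and 8.32% in WT. The largest among these target genes were the chemokine receptor CXCR4 (4.12 in KO, 2.22 in WT) and the mitochondrial protein NDUFA4L2 (2.07 and 1.58). The lipid droplet protein PLIN2 followed in KO (1.02), while endothelin (EDN1) was lower (-1.08 in KO). Under the combination 10 of the target genes were higher and 3 lower in KO and 11 higher and 2 lower in WT. Of all genes 10.7% were higher and 10.6% lower in KO, and 10.5% and 12.2% in WT. Under BMN against control, 8 of the target genes were lower and 1 higher in KO, and 4 lower and 1 higher in WT. Of all genes 17.3% were lower and 13.2% higher in KO, and 3.49% and 2.64% in WT. The miR-210 host gene led the target genes (-1.04 in KO, -0.48 in WT). Of 15 other glycolysis and lactate genes 9 were lower and 2 higher under BMN in KO, with ALDOC at -0.89. In WT 3 were lower, and the same shares of all genes under BMN apply. At day 16 of DAC 7 of these 15 were higher and 1 lower in KO, and 4 higher and 2 lower in WT. The neuronal glucose transporter SLC2A3 led them (1.11 in KO, 1.84 in WT). Of all genes 7.18% were higher and 6.85% lower there in KO, and 8.23% and 8.32% in WT. Of 10 integrated stress response genes 7 were higher and 2 lower in untreated KO than in untreated WT cells. Of all genes 13.4% were higher and 13.9% lower. Under BMN 3 of the 10 were lower and 1 higher in KO, where 17.3% and 13.2% of all genes were. In WT 3 of the 10 were lower under BMN, where 3.49% of all genes were. Of 12 proliferation genes 5 were higher and 5 lower under BMN in KO, where 13.2% and 17.3% of all genes were. In WT edgeR made no call under BMN, with 3 at an unadjusted p under 0.05. Under DAC 8 were lower in KO and 7 in WT, where 21.1% and 15.7% of all genes were.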

How the data were processed

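Total RNA was made into 40 libraries with the KAPA RNA HyperPrep kit, as the labels state, and sequenced. Counts in the deposited table are unnormalized fragments per gene, produced by the authors with featureCounts 1.5.0-p1, per the file headers. The headers record the Ensembl 104 annotation of GRCh38, counting by strand (setting 1), a minimum mapping quality of 20, and neither secondary alignments nor duplicates. These settings do not by themselves say how fragments in overlapping same-strand genes were assigned. The header names 76 alignments and the table holds 40. The submitters' processing notes also name FastQC, Trimmomatic and Partek. The aligner is not given in the sources used here beyond the alignments' names. All 37 mitochondrial genes were at 0.

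Each column was matched to its sample by label. Totals were 17833960 to 22631101 counts, and the floor of 3 counts reflects counting error alone. Low genes were removed with filterByExpr (minimum count 10, minimum total 15), scaled by TMM and fitted over all 40 libraries with edgeR 4.0.16 quasi-likelihood in R 4.3.3, with 20 residual degrees of freedom and a biological coefficient of variation of 0.0718. P-values were adjusted by Benjamini-Hochberg over 22527 genes. CPM are TMM-scaled and FPKM use merged exon length. DESeq2 1.42.0 was an alternative. On simulated data of BMN against control in KO cells, 61 of 67 genes changed 1.5-fold were recovered among 22527, with 10 false calls. The simulated libraries were independent, all genes had the same dispersion and no very low gene was changed. Recovery in the real data may therefore be lower, and other comparisons were not simulated.

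The members, gene lists and comparisons were chosen with earlier results of these data known, and the comparisons of day 16 with days 5 and 26 and of BMN at single days were added after the values were seen. All 35 members and SETD2 could be named, and of each other list the HIF machinery or up to 4 genes with the largest change among those that passed. Alternatives were RLE and upper-quartile scaling, no filter or a minimum of 50, the contrast's libraries alone, a replicate block, DESeq2 and leaving out each library.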

Additional observations from a re-analysis of the deposited data

Results flagged for a closer look

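The results below were picked out because the effect of a treatment differed between KO and WT cells by a test of that difference in the edgeR fit. Each value is the KO effect minus the WT effect on the log2 scale. The comparisons share control or DAC libraries, so their values are not independent.

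For BMN against control the KO effect was the more negative for NDRG1 (-0.92), VEGFA (-0.51), EGLN3 (-0.50), EPAS1 (-0.28) and CCND1 (-0.23). EPAS1 and CCND1 lost the call in most fits that left out a library.

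For DAC against control the KO effect was the more negative for CA12 (-0.80), MXI1 (-0.78), DDIT4 (-0.75), HILPDA (-0.64), CCND1 (-0.50), STC2 (-0.46), HK2 (-0.45), VEGFA (-0.44), P4HA2 (-0.38), ADM (-0.37), BNIP3 (-0.33), HK1 (-0.28) and LDHA (-0.25). ADM, BNIP3, HK1 and LDHA lost the call without at least 1 of the control libraries. MXI1 was above WT in untreated KO cells and below WT under DAC.

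For the combination against DAC the KO effect was the more negative for ANGPTL4 (-0.83), STC2 (-0.56), VEGFA (-0.53), HK2 (-0.46), ADM (-0.46), SLC2A1 (-0.42), CA12 (-0.42), CCND1 (-0.31), BHLHE40 (-0.30), EGLN3 (-0.28), PFKFB4 (-0.28), ENO2 (-0.27) and P4HA2 (-0.21). It was the more positive for PFKFB3 (0.56), MXI1 (0.49), BNIP3 (0.25), ARNT (0.24), LDHA (0.21) and PGK1 (0.20). ANGPTL4 lost the call without KO combination day 26 replicate 1 or KO DAC day 26 replicate 2, and PFKFB4 without WT DAC day 5 replicate 2, KO DAC day 5 replicate 1 or KO combination day 26 replicate 2.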

How the results depend on the processing

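Of member calls compared with each setting, the direction and side of the threshold were kept for 581 and lost for 7 with DESeq2, for 579 and 10 with RLE scaling, for 585 and 4 with upper-quartile scaling, for 562 and 27 with no filter and for 577 and 3 with a minimum of 50 counts. Fitting the contrast's libraries alone, with fewer degrees of freedom, kept 510 and lost 79. That setting left 14 of 22 calls for untreated KO against WT, 2 of 13 for BMN in WT, 3 of 5 for the KO minus WT difference under BMN, 7 of 15 for DAC at day 26 against day 5 in WT, 0 of 2 at day 5 of BMN in WT, 2 of 6 for the difference at day 5, 10 of 20 at day 26 in WT and 1 of 6 for the difference at day 26, and it raised the count at day 16 of BMN in KO to 22, against 14. RLE scaling gave 3 of 5 for the difference under BMN and 1 of 2 at day 5 in WT, and no filter gave 8 against 5. The cause of these changes was not tested. Leaving out 1 library gave 3 to 15 calls for the difference under BMN, 2 to 13 at day 5 and 6 to 12 at day 26, 5 to 18 for BMN in WT, 0 to 2 at day 5 in WT, 13 to 16 for day 26 against day 5 of BMN in KO, and 9 to 14 in KO and 4 to 8 in WT at day 16 of BMN. Over those fits 4603 member calls were kept, 361 lost, 2 gained and 2 reversed: SLC2A1 under DAC in WT ran between -0.41 without WT control replicate 1 and 0.00564 without WT control replicate 2, and SETD2 in untreated cells between -0.31 without KO control replicate 1 and 0.022 without KO control replicate 2. Replicate numbers did not pair the samples consistently. Over 190 pairs of groups the correlations of same-numbered deviations ran between -0.66 and 0.77, with 57 above 0.1. Libraries of some groups thus shared deviations, which the fit treats as independent. With a replicate block 588 calls were kept and 1 was lost. ANGPTL4, LOX, CA9 and ANKRD37 had the fewest counts, and depth limits their values most.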

Other observations

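Across the 20 groups the highest mean of a member fell in KO cells at day 16 of the combination for 10 members and in WT cells at day 16 of the combination for 8. The lowest mean fell in WT cells at day 26 of BMN for 11 members and in KO cells at day 26 of BMN for 5. These counts of highest and lowest groups were not made over all genes, so they do not show a trait particular to the members. Under BMN the libraries of day 26 lay below those of control, day 5 and day 16 for 18 members in each line, where 12.2% of genes tested in KO and 12.4% in WT did so. Under DAC this held for 16 members in KO and 6 in WT, where 12.9% and 6.33% of genes did, and under the combination for 6 in each line, where 6.3% in KO and 7.64% in WT did.

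ARNT2, the homologue of ARNT, ran against the members at day 16. It was lower at day 16 than at days 5 and 26 under DAC in KO (-0.50) and WT (-0.59) and under the combination in KO (-1.02) and WT (-1.16), and each of these passed the edgeR test. HIF1A RNA in WT cells was highest in the combination at day 26, with 90.9 and 89.8 CPM, against 55.3 and 47.4 CPM in WT controls.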
